A study of Mus musculus with 4 samples.

Results

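The genes described here are 35 genes of antioxidant defence and of the supply of its reducing power, NADPH: the enzymes of glutathione synthesis and recycling, the thioredoxin and peroxiredoxin system, glutathione peroxidases and transferases, catalase, superoxide dismutases, metallothioneins, the pentose phosphate pathway and 3 further genes that respond to electrophiles. They were listed by function, many of them also for Maf recognition elements. The rule sets no threshold on a measured value, but the list was drawn up with earlier results of these data known, so its comparison with all genes is a description. Each was found on the array through the RefSeq accession of its probes and was represented by its brightest probe. All 35 were among the 19751 genes with a named probe, and 34 were among the 15123 genes measured, meaning that a probe was well above background on both WT arrays or on both Bach2KO arrays. The remaining member, Gsta4, a glutathione transferase gene, was not well above background on any array, with -8.09 and -8.43 in WT and -8.19 and -7.93 in Bach2KO on the log2 scale used below. The 34 measured members were well above background on each of the 4 arrays.

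Expression was measured by 1-colour microarray in alveolar macrophages, the phagocytes that live in the air sacs of the lung, from wild-type mice (WT) and from mice lacking the transcription repressor Bach2 (Bach2KO). Cells were sorted and pooled, for WT from 8 mice, and for Bach2KO from 4 mice by the treatment protocol or 3 by the series design text. The single RNA sample of each genotype was divided in 2 before labelling, so that each genotype has 2 arrays. The strain, sex and age of the mice, the allele and the sorting gate were not given in the sources used here. Arrays of the same genotype thus repeat 1 pooled RNA sample. Their spread therefore covers labelling and hybridisation only, no difference below was checked in a second RNA sample, and no p-value is given.

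Cells detoxify hydrogen peroxide and organic peroxides by oxidising thiols, in glutathione or in thioredoxin and the peroxiredoxins, and reduce those thiols again with NADPH. Many of the genes involved carry Maf recognition elements or the closely related antioxidant response element, at which the activator Nrf2 (encoded by Nfe2l2) and the repressors Bach1 and Bach2 compete as dimers with small Maf proteins. Alveolar macrophages meet inhaled oxidants and oxygen directly and also make superoxide themselves with an NADPH oxidase. The comparison asks whether the genes of this network differ in macrophages without Bach2.

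Sequences upstream of transcription start are shown first, for members whose promoters hold the letters that CNC factors and Maf proteins bind. Of the 35 members, 31 had a promoter window (250 bases before to 50 bases after an annotated start) in the RefSeq tables of build GRCm38.p6. Gclc, Gsr, Prdx6 and Gsta4 were the others. The letters TGANTCAGC, a Maf recognition element core searched on both strands, were found in the windows of 5 of 31 members (16.1%) and of 1.37% of the 27025 genes with a window. The members were collected partly for such elements, so this share is not independent of how they were chosen. The letters TGACNNNGC, the core of the antioxidant response element, which overlap the first motif where its N is C, were found for 10 of 31 members (32.3%) and for 14.0% of all genes. Both motifs were found for 3 members, Srxn1, Prdx1 and Mt2. A match describes the letters and is not a measured binding site.

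The last 150 bases before the start are printed 5′ to 3′ on the strand of the gene, with TGANTCAGC or its reverse complement in capitals, for the 5 members that hold it.
Srxn1 (chr2:152105374-152105523, plus strand): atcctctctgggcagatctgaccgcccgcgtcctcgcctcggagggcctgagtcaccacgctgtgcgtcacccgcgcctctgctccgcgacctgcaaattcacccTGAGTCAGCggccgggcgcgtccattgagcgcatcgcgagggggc
Osgin1 (chr8:119436997-119437146, plus strand): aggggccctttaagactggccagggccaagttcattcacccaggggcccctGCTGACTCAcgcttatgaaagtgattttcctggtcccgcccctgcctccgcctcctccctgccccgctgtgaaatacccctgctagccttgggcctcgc
Prdx1 (chr4:116685449-116685598, plus strand): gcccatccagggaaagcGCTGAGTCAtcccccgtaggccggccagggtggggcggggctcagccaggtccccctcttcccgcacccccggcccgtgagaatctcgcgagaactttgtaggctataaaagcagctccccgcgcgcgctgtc
Gstp1 (chr19:4037913-4038062, minus strand): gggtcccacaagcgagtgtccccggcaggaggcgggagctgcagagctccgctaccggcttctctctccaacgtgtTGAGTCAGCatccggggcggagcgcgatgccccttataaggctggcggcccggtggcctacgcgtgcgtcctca
Mt2 (chr8:94172468-94172617, plus strand): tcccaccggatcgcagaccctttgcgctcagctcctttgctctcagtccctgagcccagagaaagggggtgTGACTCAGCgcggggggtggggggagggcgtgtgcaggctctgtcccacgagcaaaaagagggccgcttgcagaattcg
Counted back from the start, the first capital lies at base 45 in Srxn1, 99 in Osgin1, 133 in Prdx1, 74 in Gstp1 and 79 in Mt2. The 9 letters in Srxn1 and Gstp1 are the same, TGAGTCAGC, and those in Mt2, TGACTCAGC, differ from them only at the N. The search let only the N vary, so the likeness of these letters is not a result. In Osgin1 and Prdx1 the element lies in the other orientation. The values below place these genes on both sides. Srxn1 was called higher in Bach2KO, Osgin1 and Prdx1 were higher without a call, Gstp1 was slightly lower, and Mt2 was called lower. Whether the element bears on these differences was not tested.

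6 further members hold TGACNNNGC or its reverse complement in the same stretch. Txnrd1, Gclm and Gsta3, with the larger differences (0.94, 0.52 and 1.06), are shown with it in capitals, at bases 92, 134 and 121 before the start. Mgst1, Sod1 and G6pdx hold it at bases 56, 56 and 57 and differed by only 0.10, 0.15 and 0.05. Pgd, which differed by 0.24, holds it after the start. These letters were thus found in members with larger and with smaller differences.
Txnrd1 (chr10:82859056-82859205, plus strand): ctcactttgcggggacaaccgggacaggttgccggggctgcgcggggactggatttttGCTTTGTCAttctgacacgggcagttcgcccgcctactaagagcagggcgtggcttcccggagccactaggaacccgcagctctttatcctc
Gclm (chr3:122245407-122245556, plus strand): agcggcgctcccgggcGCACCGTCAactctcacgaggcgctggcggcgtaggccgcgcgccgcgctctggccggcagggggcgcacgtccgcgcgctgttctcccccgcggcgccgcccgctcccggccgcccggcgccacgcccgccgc
Gsta3 (chr1:21240435-21240584, plus strand): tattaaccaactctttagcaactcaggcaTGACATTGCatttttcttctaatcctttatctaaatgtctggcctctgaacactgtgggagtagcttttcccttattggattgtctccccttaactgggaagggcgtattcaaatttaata
Slc7a11, the member with the largest difference, held neither motif in its window. It is shown for another element, TGATGCAA, the letters bound by Atf4 with a C/EBP partner, which stands in capitals once in each orientation.
Slc7a11 (chr3:50443614-50443763, minus strand): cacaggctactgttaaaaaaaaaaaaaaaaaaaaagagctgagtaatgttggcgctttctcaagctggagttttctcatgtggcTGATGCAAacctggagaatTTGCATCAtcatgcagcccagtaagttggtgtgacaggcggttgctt
These letters were found in the windows of 1.03% of all genes and of no other member, and Slc7a11 held them at bases 66 and 47. A part of Atf4 in the signal of Slc7a11 was not tested.

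Values below are log2 signals of a gene's brightest probe relative to the 75th percentile of the same array, so that 0 marks that percentile. The call used here asks that a gene differ by 2-fold or more, the same way, in each of the 4 possible pairings of Bach2KO with WT arrays. It is a threshold on size and no statistical test. By this call 5 of 34 members were higher in Bach2KO, against 8.37% of all measured genes, and 1 was lower, against 5.90%. The called genes were Slc7a11, Gpx3, Gstm1, Srxn1 and Sod2 (higher) and Mt2 (lower), and 28 members were not called. With this scaling the differences below 2-fold also lay mostly to one side. At 1.5-fold in all 4 pairs, 14 members were higher, against 14.8% of all genes, and 2 were lower, against 12.8%. These counts include the members called at 2-fold. The median difference of the 34 members was 0.35, and that of all genes 0.06. The upper quartile of all genes was 0.45, and 16 of 34 members lay above it, while 2 of 34, Mt1 and Mt2, lay below the lower quartile of -0.35.

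Scaling the arrays to 9 spike-in probes in place of the 75th percentile lowered every difference by 0.72 and moved the median of all genes to -0.66. The median of the members then became -0.37, with 2 members called higher (4.15% of all genes) and 2 lower (21.0% of all genes). Of all calls, 58.7% were higher with the 75th percentile and 16.5% with the spike-in probes. Which scaling holds cannot be told from these arrays, so the sign of a member whose difference lies between 0 and 0.72, of which there were 14, depends on it. A member's place among all genes does not, and is given below for the main members as the percentage of measured genes with a smaller difference.

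**Figure D1:**
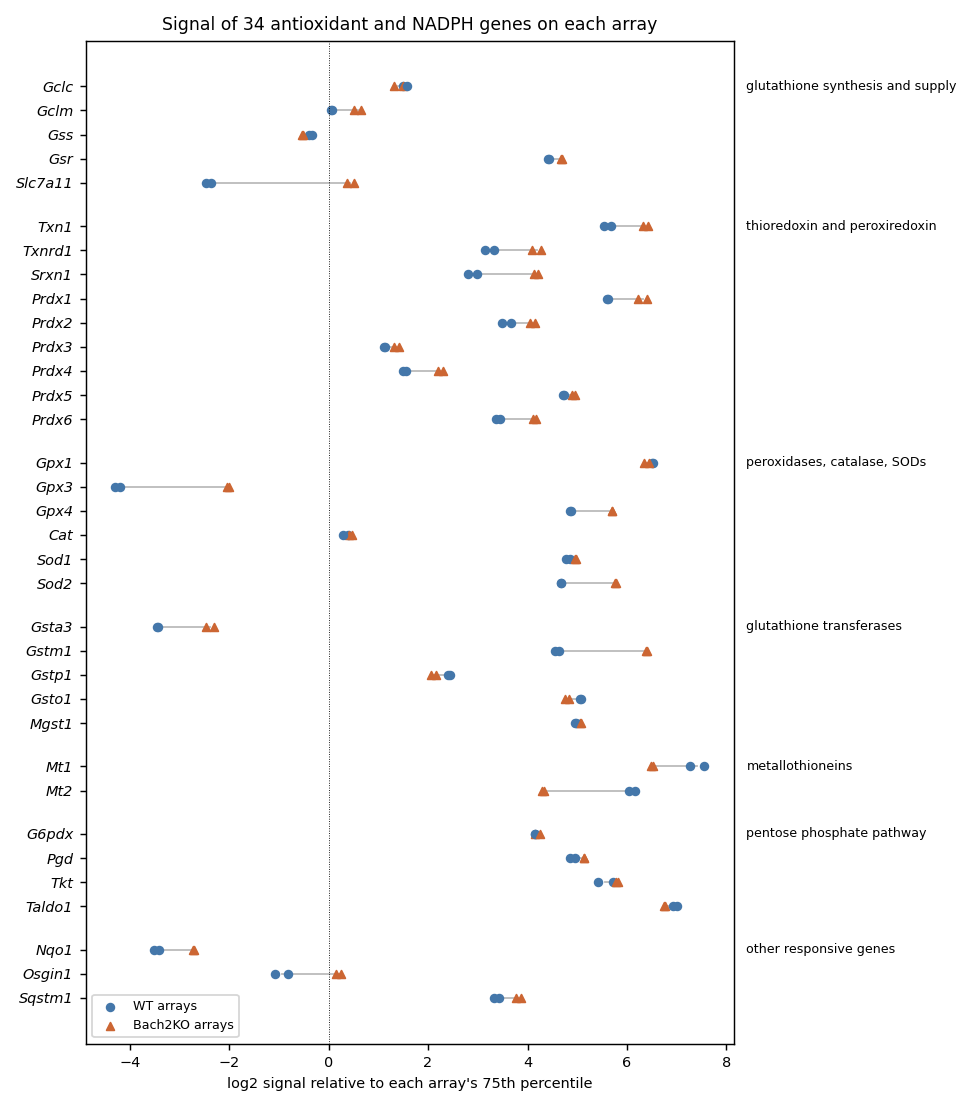
Each row is 1 of the 34 measured members, grouped by role, and the x axis is the log2 signal relative to the array's 75th percentile (dotted line at 0). Circles are the 2 WT arrays and triangles the 2 Bach2KO arrays, the grey line joins the means, and the triangles of Slc7a11, Gpx3, Gstm1, Srxn1 and Sod2 lie to the right of the circles while those of Mt1 and Mt2 lie to the left.

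The arrays of the same RNA lay close together. The largest gap between them over the members was 0.29 in WT, for Tkt, and 0.19 in Bach2KO, with medians of 0.07 and 0.07. The WT and Bach2KO arrays did not overlap for 25 members with Bach2KO higher, against 45.6% of all genes, or for 8 members with Bach2KO lower, against 39.5%. G6pdx was the member for which they overlapped. With repeats this close, most genes of the array do not overlap, so separation alone says little about a member and its size matters more.

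In the plot of signals by array, the genes that supply glutathione stood apart from each other. Slc7a11 encodes the transport chain of the cystine and glutamate exchanger, which brings in the cystine that limits glutathione synthesis. Its signals were -2.46 and -2.37 in WT and 0.50 and 0.37 in Bach2KO. It was 7.21-fold higher, a difference of 2.85 that exceeded that of 97.5% of measured genes, and it was called with spike-in scaling too (2.13). Only 382 of the 15123 genes had a larger difference.

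The ligase that makes gamma-glutamylcysteine, the first committed step, has a catalytic subunit (Gclc) and a modifier subunit (Gclm) that eases its inhibition by glutathione. Gclm had signals of 0.05 and 0.07 in WT and 0.65 and 0.51 in Bach2KO, a difference of 0.52. Gclc had 1.5 and 1.57 against 1.49 and 1.32, a difference of -0.13. The subunits of the same enzyme thus lay on different sides of 0, and with spike-in scaling both were below it (-0.20 and -0.85). Glutathione synthetase (Gss), which adds glycine in the final step, differed by -0.15 with pairs from -0.19 to -0.11. Glutathione reductase (Gsr), which regenerates glutathione with NADPH, had 4.44 and 4.41 in WT and 4.67 and 4.69 in Bach2KO, a difference of 0.26 that its other probe gave as 0.15 and that was negative with spike-in scaling (-0.46). Of the 5 genes of this group, Slc7a11 alone was called, against 8.37% of all genes called higher and 5.90% lower.

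The thioredoxin and peroxiredoxin genes lay on one side. The 9 genes differed by 0.20 to 1.28 with the 75th percentile, each with Bach2KO higher, and their median of 0.72 became 0.00 with spike-in scaling, where 4 were above 0 and 5 below. Srxn1, the sulfiredoxin that uses ATP to rescue over-oxidised peroxiredoxins, had signals of 2.99 and 2.81 in WT and 4.21 and 4.13 in Bach2KO. It was 2.42-fold higher (pairs from 1.15 to 1.40 on the log2 scale, above 92.4% of genes). Srxn1 was the only called gene of the group, against 8.37% of all genes called higher and 5.90% lower. Its call ended with spike-in scaling (0.56).

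Txnrd1 encodes the cytosolic selenoprotein that reduces thioredoxin with NADPH. Its signals of 3.33 and 3.15 in WT and 4.08 and 4.27 in Bach2KO gave a difference of 0.94, with pairs from 0.75 to 1.12, so that some pairs passed 2-fold and others did not. Its substrate gene Txn1 had 5.68 and 5.54 against 6.32 and 6.43, a difference of 0.76 and 1.69-fold. Reductase and thioredoxin were thus both higher, above 89.0% and 85.8% of genes, and both stayed above 0 with spike-in scaling (0.22 and 0.04).

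Peroxiredoxins are thiol peroxidases that differ by compartment. Prdx1, cytosolic and nuclear, had signals of 5.59 and 5.62 in WT and 6.23 and 6.41 in Bach2KO, a difference of 0.71, which was 1.01 by its other probe. Prdx6, which also has phospholipase A2 activity and takes part in the turnover of surfactant phospholipid, differed by 0.73 (3.44 and 3.37 against 4.16 and 4.10), and its 3 other probes gave 0.61 to 0.70. Prdx4, of the endoplasmic reticulum, differed by 0.72. Prdx2, a second cytosolic form, differed by 0.52 (pairs from 0.38 to 0.67). The mitochondrial Prdx3 and the partly mitochondrial Prdx5 had the smallest differences of the family, 0.24 and 0.20. With spike-in scaling the differences of Prdx1, Prdx4 and Prdx6 lay between -0.01 and 0.01, and those of Prdx2, Prdx3 and Prdx5 were negative (-0.20, -0.48 and -0.52).

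**Figure D2:**
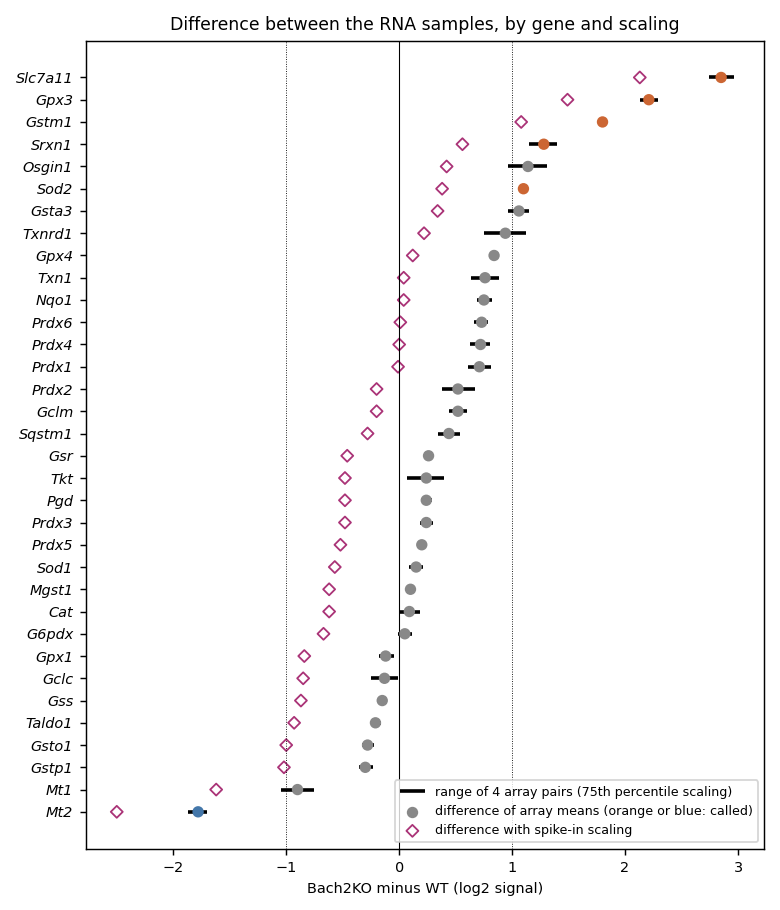
The x axis is Bach2KO minus WT on the log2 scale for each measured member, ordered by size, with dotted lines at 2-fold. Filled points are differences of array means (orange called higher, blue called lower), bars the range of the 4 array pairs and open diamonds the difference with spike-in scaling, which lies 0.72 to the left for each gene and leaves Slc7a11 and Gpx3 called higher and Mt1 and Mt2 called lower.

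Among the glutathione peroxidases the pattern was uneven, as the plot of differences shows. Gpx3, the secreted plasma form, had low signals of -4.29 and -4.19 in WT and of -2.01 and -2.05 in Bach2KO. It was 4.63-fold higher, above 96.3% of genes, and was called under spike-in scaling as well (1.49). For this dim gene the difference of 2.21 shrank to 1.51 with normexp background correction and to 1.35 with normexp and quantile normalization, with the call kept. Gpx4, which reduces lipid peroxides in membranes and so restrains ferroptosis, had 4.87 and 4.86 against 5.70 and 5.70, a difference of 0.84 or 1.78-fold that was 0.12 with spike-in scaling. Gpx1, the abundant cytosolic form, had 6.53 and 6.5 against 6.34 and 6.45, a difference of -0.12. The 3 peroxidases therefore differed by 2.21, 0.84 and -0.12.

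Sod2, the manganese superoxide dismutase of mitochondria and a gene that inflammatory signals induce, had signals of 4.67 and 4.67 in WT and 5.75 and 5.78 in Bach2KO. The 2.14-fold higher signal was called, although not with median centring, with either quantile normalization or with spike-in scaling (0.38). Sod1, the cytosolic copper and zinc enzyme, differed by 0.15 (4.86 and 4.77 against 4.95 and 4.98), and catalase (Cat), which breaks down hydrogen peroxide in peroxisomes, by 0.09, or 0.07 by its other probe. Sod1 and Cat were negative with spike-in scaling (-0.57 and -0.62). The mitochondrial dismutase and not the cytosolic one was thus among the called genes, and the difference between these values was not tested.

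Glutathione transferases, which couple glutathione to electrophiles, split. Gstm1, of the mu class, had signals of 4.63 and 4.56 in WT and 6.4 and 6.39 in Bach2KO. Its brightest probe was 3.49-fold higher (1.80), and its other probe gave a difference of 1.98. The call of Gstm1 ended with spike-in scaling, where not all 4 pairs reached 2-fold although the mean difference was 1.08. Gsta3, an alpha class gene with low signals of -3.44 and -3.46 in WT and -2.31 and -2.47 in Bach2KO, differed by 1.06 with pairs from 0.96 to 1.15, just short of a call, and its other probe gave 0.79. On the other side were Gstp1, of the pi class, with 2.39 and 2.43 against 2.06 and 2.16 (-0.30, and -0.25 by its other probe), and Gsto1, of the omega class, which differed by -0.28 (5.08 and 5.05 against 4.76 and 4.83). The membrane-bound Mgst1 differed by 0.10 and 0.14 by its probes. Transferases of a class are similar in sequence, so a probe may bind several of them and each value is uncertain to that extent.

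Gsta3 and Gstm1 are also expressed in club cells of the airway, and epithelial markers were measured in the same RNA. Of 9 measured epithelial markers 3 were higher, 1 lower and 5 neither, against 8.37% and 5.90% of all genes, and with spike-in scaling 0 were higher and 1 lower. The summed linear signal of the 9, relative to the 75th percentile, was 3.92 and 4.0 in WT and 4.87 and 4.86 in Bach2KO. Most of this sum came from Cdh1 (1.04 and 1.10 in WT, 2.02 and 1.99 in Bach2KO), and most of the rest in WT from Epcam (0.52 and 0.56). It is therefore no measure of the club cell genes. Of the called epithelial markers, Sftpb (higher) passed the filter only through the Bach2KO arrays and Epcam (lower) only through the WT arrays. The club cell secretory gene Scgb1a1 had -2.40 and -2.56 in WT and -0.94 and -0.81 in Bach2KO, and Cyp2f2, a cytochrome of the same cells, -5.87 and -5.96 against -4.62 and -4.56. The adhesion gene Epcam was at least 98.1-fold lower in Bach2KO, and the surfactant protein gene Sftpc had -4.02 and -4.08 against -3.91 and -3.95. The part of other cells in the transferase signals was not tested. In pooled cells, fewer cells that express a gene and less RNA of it per cell cannot be told apart.

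The metallothioneins went the other way. These small cysteine-rich proteins bind zinc and copper and scavenge radicals, and their genes respond to metals through Mtf1. Mt2 had signals of 6.17 and 6.04 in WT and 4.30 and 4.34 in Bach2KO. It was 3.44-fold lower, and 409 of the measured genes, 2.70%, had a smaller difference. Mt1, the neighbouring gene, had 7.55 and 7.27 against 6.49 and 6.52, a difference of -0.90 with pairs from -1.05 to -0.75, so that it was not called. It was called lower with spike-in scaling (-1.62) and with either quantile normalization, and both genes were below 0 under each scaling tried. Without WT array 2, Mt1 was called lower as well, which took the number of lower members from 1 to 2.

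The oxidative branch of the pentose phosphate pathway makes NADPH from glucose 6-phosphate. Its first enzyme gene, G6pdx, had signals of 4.14 and 4.15 in WT and 4.14 and 4.25 in Bach2KO, which overlap. Pgd, which makes the second NADPH, differed by 0.24 (4.86 and 4.95 against 5.14 and 5.14). Of the non-oxidative branch, transketolase (Tkt) differed by 0.24, with arrays of the same WT RNA 0.29 apart, and transaldolase (Taldo1) by -0.21 (7.0 and 6.92 against 6.76 and 6.74). None of the 4 was called, against 8.37% of all genes called higher and 5.90% lower. Their median of 0.14 was -0.58 with spike-in scaling, where all 4 were below 0, as were 12846 of the 15123 measured genes. Of the NADPH-using reductases above, Gsr differed by about as much as Pgd and Tkt, and Txnrd1 by more.

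The 3 further electrophile-responsive genes were higher by less than the call requires. Osgin1, an oxidative stress-induced growth inhibitor, had -1.07 and -0.81 in WT and 0.24 and 0.15 in Bach2KO, a difference of 1.14 with pairs from 0.96 to 1.31. Nqo1, the quinone reductase often read as the standard output of Nrf2, had low signals of -3.42 and -3.52 against -2.73 and -2.70, a difference of 0.75. Sqstm1, the autophagy receptor p62 that binds Keap1, differed by 0.44 (3.32 and 3.42 against 3.87 and 3.76). With spike-in scaling Osgin1 stayed above 0 (0.42), Nqo1 was near 0 (0.04) and Sqstm1 was below it (-0.28).

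With the 75th percentile, probes of the same member gave the same direction. The 10 further probes of 8 members that passed the filter had the sign of the brightest probe, from -0.25 for Gstp1 to 1.98 for Gstm1. With spike-in scaling the probes of Prdx1 (-0.01 and 0.29) and of Prdx6 (0.01 against -0.11 to -0.02) lay on both sides of 0.

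**Figure D3:**
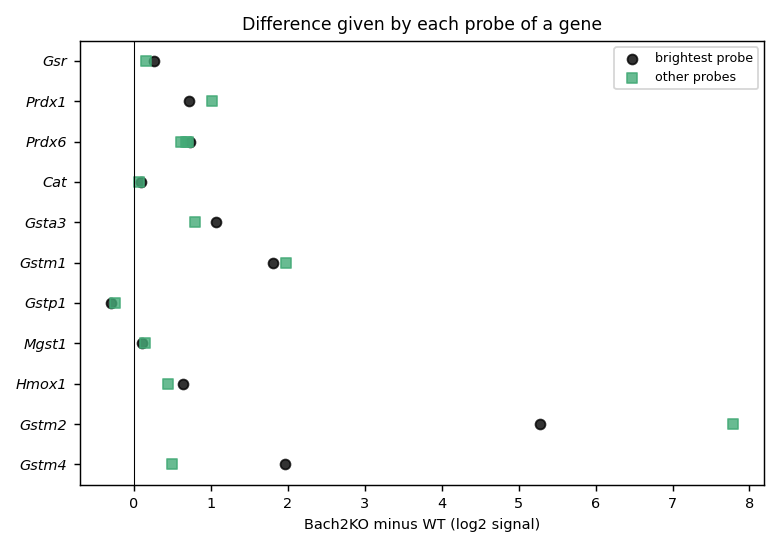
The x axis is Bach2KO minus WT on the log2 scale, with 1 row for each of the 8 members that had more than 1 probe well above background on all 4 arrays, and rows for Hmox1, Gstm2 and Gstm4 of the wider network. Circles are the brightest probe and squares the others. With this scaling, the 75th percentile, they lie on the same side of 0 within each gene, and the probes of Gstm2 and Gstm4 are the furthest apart.

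A further 98 genes of the same network served as companions: regulators, heme and ferritin genes, other sources of NADPH, the NADPH oxidase, other thiol enzymes, glutathione transport and breakdown, and other transferases. Of 87 measured, 15 were called higher and 5 lower, against 8.37% and 5.90% of all genes, and their median was 0.32. With spike-in scaling 10 were higher and 14 lower, against 4.15% and 21.0% of all genes, with a median of -0.40 where that of all genes was -0.66.

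None of the 7 measured regulators was called with the 75th percentile, against 8.37% of all genes higher and 5.90% lower. With spike-in scaling all 7 were below 0, as were 12846 of the 15123 measured genes. With that scaling 1 regulator was called lower, against 21.0% of all genes. Nfe2l2, which encodes Nrf2, had signals of 3.78 and 3.92 in WT and 3.70 and 3.61 in Bach2KO (-0.19). Keap1, which marks Nrf2 for degradation, differed by 0.17, and Nfe2l1, which encodes the related activator Nrf1, by 0.31. Bach1, the close relative of Bach2 that represses heme oxygenase, had 2.27 and 2.22 against 1.71 and 1.71, a difference of -0.54 that was called lower with spike-in scaling (-1.26). The small Maf genes Mafg, Maff and Mafk differed by 0.64, 0.47 and 0.24, each negative with spike-in scaling (-0.08, -0.25 and -0.48). Bach2 was well above background on only 2 arrays, 1 of each genotype, did not pass the filter and so gave no check of the genotype labels. Hmox1, heme oxygenase and the classical target of Bach1, had 4.04 and 3.94 against 4.61 and 4.64, a difference of 0.64, or 0.44 by its other probe, that was -0.08 with spike-in scaling.

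NADPH is also made by malic enzymes and by folate enzymes. Me1, the cytosolic malic enzyme and a known Nrf2 target, had signals of -2.34 and -2.31 in WT and 0.13 and 0.17 in Bach2KO, 5.54-fold higher and called under spike-in scaling as well (1.75). Me2, the mitochondrial form, which mainly uses NAD, was 2.54-fold lower (1.76 and 1.77 against 0.41 and 0.44). Of 13 measured genes of this group 3 were higher and 1 lower, against 8.37% and 5.90% of all genes, and 1 was higher and 2 lower with spike-in scaling (4.15% and 21.0% of all genes). Of 81 companions with a promoter window, 2 held TGANTCAGC (2.47%, against 1.37% of all genes): Me1, from 6 bases before its start, and Gstp2, a pi class transferase gene that differed by -0.07, from 89 bases before. The letters TGACNNNGC were found for 14 of the 81 (17.3%), close to the 14.0% of all genes. The NADPH oxidase, the main consumer of NADPH in activated phagocytes, had no called gene among 9 measured, against 8.37% higher and 5.90% lower of all genes. The median of the oxidase genes was 0.42, or -0.30 with spike-in scaling. Among them, the membrane subunit genes Cybb and Cyba, named here after their values were seen, differed by 0.77 and 0.84.

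The mu class transferases among the companions all had Bach2KO higher with the 75th percentile. Of these, Gstm4, Gstm5 and Gstm7 are named here after their values were seen. Gstm2 had signals of -2.67 and -2.65 in WT and 2.57 and 2.67 in Bach2KO and was 38.8-fold higher by its brightest probe, with 100 of the 15123 genes above it, a difference of 5.28 that was 7.79 by another probe and 7.08 over the mean of its probes. The mean for Gstm2 includes a probe that gave 8.17 and was well above background on only 2 arrays. Gstm3 was 4.63-fold higher, a difference of 2.21 that was 1.27 by its other probe, also well above background on only 2 arrays. Gstm4 was 3.89-fold higher, although its other probe gave 0.49, or -0.23 with spike-in scaling. Gstm5 and Gstm7 differed by 0.65 and 0.80 without a call, and Gstm5 was negative with spike-in scaling (-0.07). Genes of this class are similar in sequence, and whether a probe also binds its neighbours was not tested. Of the other transferases, the microsomal Mgst2, a leukotriene C4 synthase as well, was 4.34-fold higher (1.65 and 1.65 against 3.73 and 3.80). Its relative Mgst3 was 4.14-fold lower (2.77 and 2.86 against 0.68 and 0.85), and Gstt3, of the theta class, was 2.54-fold lower. Of 25 measured genes of this group 8 were higher and 2 lower, against 8.37% and 5.90% of all genes, and 7 were higher and 5 lower with spike-in scaling (4.15% and 21.0% of all genes).

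In glutathione transport and breakdown the called genes also lay on both sides. Of 9 measured genes 2 were higher and 1 lower, against 8.37% and 5.90% of all genes. With spike-in scaling 2 were higher and 2 lower, against 4.15% and 21.0% of all genes. Chac1, which cleaves glutathione in the cytosol and is induced by Atf4, had -2.53 and -2.77 in WT and -0.60 and -0.36 in Bach2KO, 4.49-fold higher. Of 81 companions with a promoter window, 2 held TGATGCAA (2.47%, against 1.03% of all genes): Chac1, in the reverse orientation, and Ptgr1 of the detoxifying enzymes. Binding of Atf4 was not tested. The glycine transporter gene Slc6a9 was 5.32-fold higher (-3.99 and -3.88 against -1.60 and -1.44), a difference of 2.41 that was 1.77 with normexp and quantile normalization. Oplah, which returns the 5-oxoproline released from glutathione to glutamate, was 5.62-fold lower, from 0.47 and 0.51 to -2.04 and -1.96. Chac1, Slc6a9 and Oplah kept their calls with spike-in scaling (1.45, 1.69 and -3.21). Txnip, which binds and inhibits thioredoxin, had 4.43 and 4.45 in WT and 2.82 and 2.81 in Bach2KO and was 3.08-fold lower, opposite in sign to Txn1 with either scaling.

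**Figure D4:**
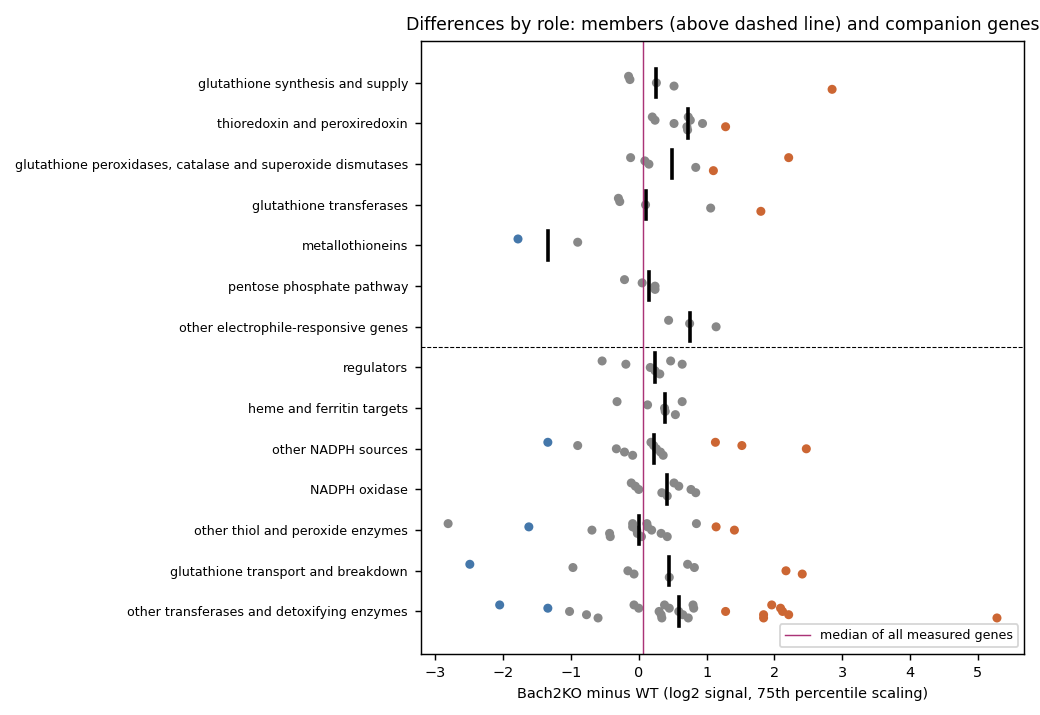
The x axis is Bach2KO minus WT on the log2 scale with the 75th percentile scaling, and each point is a measured gene, orange if called higher, blue if called lower and grey otherwise. Rows above the dashed line are the 7 groups of members and rows below it the 7 groups of companions, black bars are group medians and the vertical line is the median of all measured genes (0.06). The thioredoxin and peroxiredoxin points all lie to the right of that line, and the metallothioneins lie to the left.

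The labelled cell type was checked against its markers. All 12 alveolar macrophage markers were measured, of which 6 were lower in Bach2KO and 1 higher, with a summed linear signal of 1310 and 1150 in WT and 809 and 808 in Bach2KO. Siglecf, a defining lectin of these cells, had 5.38 and 5.25 against 1.72 and 1.61, well above background in both genotypes. Of 9 monocyte and interstitial macrophage markers 4 were higher and 1 lower (summed signal 57.9 and 59.8 against 66.4 and 65.7), and of 9 neutrophil markers 2 were higher and 1 lower (45.8 and 44.5 against 55.6 and 56.0). Of the T cell, B cell and endothelial markers, 3 of 6, 1 of 5 and 2 of 6 were higher and 0 lower, with summed signals of 7.5 and 6.73 against 9.1 and 8.99, 2.46 and 2.44 against 3.28 and 3.16, and 14.2 and 15.2 against 29.7 and 29.8. With spike-in scaling 1, 0 and 1 of these were higher, 4 of the monocyte and 2 of the neutrophil markers were higher, and 2 and 1 lower, and 6 of the alveolar macrophage markers were lower and 0 higher, where over all genes 4.15% were higher and 21.0% lower (8.37% and 5.90% with the 75th percentile). Of the markers called higher, Cd3d, Cd3g, Cd79b and S100a9 were not well above background on either WT array. They passed the filter only through the Bach2KO arrays, so a lower call was not open to them. The summed signals follow their brightest genes and do not measure the number of cells. Csf1r made most of the monocyte sum (5.59 and 5.66 in WT, 5.71 and 5.68 in Bach2KO). Most of the neutrophil sum was Csf3r, slightly lower without a call (5.31 and 5.27 against 4.98 and 4.90). S100a8 was higher (0.47 and 0.41 against 4.14 and 4.26). Cd22 made most of the B cell sum, and Vwf with Kdr most of the endothelial sum. Of 4 eosinophil markers, Siglecf, shared with the macrophage list, was lower. Sod2 and the metallothioneins are expressed in those cells too, and the part of such cells in the values above was not tested.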

How the data were processed

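The deposited scanner files hold spot intensity, which the authors obtained with Agilent Feature Extraction (version 10.7.3.1 per the file headers, 9.1 per the submitters' processing notes). These signals had been corrected for background and spatial trend array by array, with no scaling across arrays. The deposited value table holds log2 values, which equalled the log2 processed signal of the same array minus a constant (SD of the difference 3.2e-07 to 3.5e-07; column medians -3.58, -3.67, -3.53 and -3.45), so scale, centring and direction were known.

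Control spots and outlier spots were left out, spots of a probe averaged, and the array's 75th percentile over 43020 non-control spots (1267 and 1513 in WT, 1036 and 978.9 in Bach2KO) subtracted. Between 27125 and 27918 of 39429 probes were well above background on an array, and no spot was saturated. Symbols came through unversioned accessions from a RefSeq table of GRCm38.p6: 26055 probes had 1 symbol, 0 several and 13374 none. Coordinates in the array files follow mm9 and were not used, and promoter windows are those of GRCm38.p6. Where a gene was dim on both arrays of a genotype, a bound also had to reach 2-fold, taken per array against the lowest measurable probe or the gene's own signal, whichever was brighter.

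Arrays were grouped by sample title. Named were all members, the regulators and Hmox1, and up to 6 called companions in each direction. The members and lists were chosen with earlier results of these data known. Python 3.11.15 with pandas 2.3.3, and limma 3.58.1 in R 4.3.3 for normexp, were used, and the calling rule was tested on simulated data. Alternatives were median centring, quantile normalization, spike-in scaling, normexp with an offset of 50 (applied to the median signal of a spot), the deposited table, other filters, probes and fold limits, same-numbered pairs and leaving out each array. The 4 arrays lay on 1 slide, with each genotype in adjacent positions, so that genotype and place on the slide cannot be told apart.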

Additional observations from a re-analysis of the deposited data

How the results depend on the processing

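The median difference of the members, 0.35, was -0.37 with spike-in scaling, 0.25 with median centring, 0.38 with the deposited value table and 0.26 with no filter on dim probes, which adds Gsta4, and it ranged from 0.34 to 0.39 when each array was left out. The number of members called higher, 5, was 2 with spike-in scaling, 14 at 1.5-fold and 3 at 3-fold, and 5 to 7 without 1 array, where Osgin1 and Gsta3 were added without Bach2KO array 2. The number called lower, 1, was 2 with either quantile normalization, with spike-in scaling and at 1.5-fold, and 1 to 2 without 1 array. The companions called higher, 15, were 23 at 1.5-fold, and the 5 called lower were 14 with spike-in scaling, 11 at 1.5-fold and 3 at 3-fold. Over the other alternatives these counts stayed within 1.5 times. The cause of these shifts was not tested, apart from the spike-in shift of -0.72, which is the same for every gene, and the fold limits, which set the counts by construction.

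The replicate number was used as a block by requiring 2-fold in the 2 same-numbered pairs, which gave 5 members higher and 1 lower and 15 and 5 companions. The deviations of same-numbered arrays correlated at -0.14 over genes, and crossed numbers, chosen after seeing the data, gave 6 and 1 members and 15 and 5 companions. Only 4 arrays of 2 RNA samples limit the precision.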
